A study of Mus musculus with 19 samples.

Results

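Nestin, Fabp7, the Musashi proteins and the glutamate transporter gene Slc1a3 are used together as markers of neural stem cells and radial glia. Their levels were read in a set of mouse embryonic stem cell cultures in which a long non-coding RNA, or the coding gene EVX1, was knocked down during differentiation. The members were the entries of the expression table with the symbols Nes, Fabp7, Msi1, Msi2 and Slc1a3, 5 of 38424 entries. These symbols were chosen with earlier results of these data known. Levels are FPKM, sequenced fragments scaled to transcript length and to the mapped fragments of a library. Each symbol had 1 entry.

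There were 19 RNA-seq libraries in 12 groups. In 12 libraries the cells, of strain 129S4/SvJae, had been differentiated in serum medium by withdrawing LIF, the cytokine that maintains mouse embryonic stem cells. Cells of the CJ7 line carried a control short hairpin (1 library) or a hairpin against Evx1as (2 libraries) and were taken on day 4. Cells of the CJ9 line formed the other LIF-withdrawal experiments. These were a control library and 2 shEVX1 libraries on day 4, 2 control and 2 shFendrr libraries on day 5, and 1 control and 1 shLhx1os library on day 6. The remaining 7 libraries came from 46c cells, a line known for a GFP reporter at the Sox1 locus, kept for 4 days in serum-free N2B27 medium with 5 nM retinoic acid. They were 2 controls, 2 shNr2f1as libraries, 1 shSox21os library and 2 libraries labelled shPou3f3os. All groups, controls included, carried a short hairpin. Whether the numbered libraries of a group came from different cultures or hairpins, or from the same culture, is not stated. The p-values below therefore reflect the spread among these libraries, which may be technical.

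Nestin, the product of Nes, is an intermediate filament protein that co-assembles with vimentin in neural progenitors. It is also made by myogenic, endothelial and other mesodermal precursors. Fabp7 encodes the brain-type fatty acid binding protein, and Slc1a3 encodes GLAST, a glutamate transporter; both are classical markers of radial glia, the later progenitors of the developing brain. Msi1 and Msi2 encode the Musashi RNA-binding proteins, which regulate the translation of target messages. The message of the Notch inhibitor Numb is a known Musashi target. Msi1 is known from the nervous system, while Msi2 is also known from blood stem cells.

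The genes lie on 5 chromosomes. In the mm9 positions of the deposited table, Nes spans chromosome 3, 87775015 to 87784373, and Fabp7 spans chromosome 10, 57504729 to 57508256. Msi1 is listed on chromosome 5, 115879694 to 115904211, and Slc1a3 on chromosome 15, 8584124 to 8660807. The Msi2 entry on chromosome 11, 88547268 to 88579581, spans 32314 bases, whereas the RefSeq gene spans 378925 bases, so its level was read from a part of the locus. Likewise the Msi1 entry spans 24518 bases against 96640 bases in RefSeq. Promoter sequences of 4 of the 5 genes were found in RefSeq (GRCm38.p6). Those of Nes, Fabp7 and Msi2 are shown, 3 genes whose levels followed different patterns over the libraries. Each is the 250 bases before the annotated start, 5′ to 3′ on the gene's strand, and for Msi2 the first of 3 listed starts was used. Capitals mark matches, on either strand, to the GC box GGGCGG and to the RBPJ motif TGGGAA.
Nes promoter, chr3:87970843-87971092, plus strand: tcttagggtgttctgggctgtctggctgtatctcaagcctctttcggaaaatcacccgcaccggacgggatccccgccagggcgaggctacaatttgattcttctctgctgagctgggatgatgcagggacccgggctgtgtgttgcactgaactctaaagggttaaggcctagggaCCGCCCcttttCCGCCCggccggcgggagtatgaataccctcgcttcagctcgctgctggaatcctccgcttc
Fabp7 promoter, chr10:57784673-57784922, plus strand: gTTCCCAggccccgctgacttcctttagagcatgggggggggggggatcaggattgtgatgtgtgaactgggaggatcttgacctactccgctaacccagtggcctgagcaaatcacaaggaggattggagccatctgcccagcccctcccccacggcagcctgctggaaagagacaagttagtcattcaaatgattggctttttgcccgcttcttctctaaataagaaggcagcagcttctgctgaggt
Msi2 promoter, chr11:88718278-88718527, minus strand: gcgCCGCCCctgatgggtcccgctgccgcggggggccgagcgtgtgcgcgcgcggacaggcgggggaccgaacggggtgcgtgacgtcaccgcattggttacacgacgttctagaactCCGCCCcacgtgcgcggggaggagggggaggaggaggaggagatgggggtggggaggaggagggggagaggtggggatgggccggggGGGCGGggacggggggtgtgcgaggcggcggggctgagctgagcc

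The Msi2 window was 75.6% G and C and held 29 CpG dinucleotides, against medians of 52.4% and 6 over the 32851 promoter windows of the table. Nes had 58.8% and 15, Fabp7 54.8% and 4, and Slc1a3 44.8% and 2. The GC box was matched 3 times in Msi2, 2 times in Nes, once in Slc1a3 and not in Fabp7, and 32.7% of all windows held it. The Fabp7 window held 1 RBPJ match, a motif present in 21.6% of windows, and 1 match to AGGTCA, the half-site bound by retinoic acid receptors, present in 14%. Neither was matched in the other 3 windows. None of the 4 windows held the SOX core ACAAAG (16.5% of windows) or the octamer ATGCAAAT (1.6%), and only that of Slc1a3 held the TATA motif TATAAA (12.4%). The E-box CANNTG, in 66.2% of windows, was matched 2 times in Fabp7, once each in Msi2 and Slc1a3, and not in Nes. Such matches describe letters in a window and not sites in use.

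The FPKM of a library summed to 559050 to 655315. Read depth was not given as counts; the steps between low loci put the libraries' relative depth at 0.969 to 1.33. The targeted RNAs were read first. Evx1as (entry 5730457N03Rik) was at 0.354 and 0.290 FPKM in shEvx1as and 1.66 in its control, Evx1 at 30.2 and 37.0 FPKM in shEVX1 and 53.9 in its control, and Fendrr at 0.358 and 0.0768 FPKM in shFendrr and 1.10 and 1.49 in its controls. The control of the Lhx1os experiment held 0.0883 FPKM of Lhx1os (1500016L03Rik), and the shLhx1os library listed it at 0. With 1 library each, values this near 0 do not show a loss. That knockdown is taken from the label. The Pou3f3os entry (2610017I09Rik) was at 2.40 and 4.13 FPKM in the libraries labelled shPou3f3os and 5.20 and 1.98 FPKM in the controls, and these do not separate. Nr2f1as and Sox21os were not matched by name.

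The 5 genes had different levels and followed different patterns over the libraries, shown in the plot of each gene by group. In the LIF-withdrawal libraries Nes had a median of 48.2 FPKM, Msi1 14.3, Msi2 8.53, Slc1a3 3.15 and Fabp7 0.240. In the retinoic acid libraries the median was 224 FPKM for Msi1, 48.3 for Nes, 35.4 for Msi2, 3.42 for Slc1a3 and 1.26 for Fabp7. FPKM is a value per length, but the Msi1 and Msi2 entries span only part of their RefSeq genes. Levels of different genes are therefore compared only roughly. By these medians Nes led in serum and Msi1 in retinoic acid. Nes was below Msi1 in the Lhx1os control (6.02 against 15.5 FPKM) and in Fendrr control replicate 1 (13.0 against 18.9 FPKM). The radial glia genes Slc1a3 and Fabp7 were the lowest pair in both. Nes, Msi1, Msi2 and Slc1a3 were at 1 FPKM or more in all 19 libraries. Fabp7 reached 1 FPKM in 4 libraries only, all of them knockdowns in retinoic acid, and was listed at 0 in 4 others. It passed the floor for testing, 1 FPKM in at least 2 libraries, only through those 4 knockdown libraries.

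**Figure D1:**
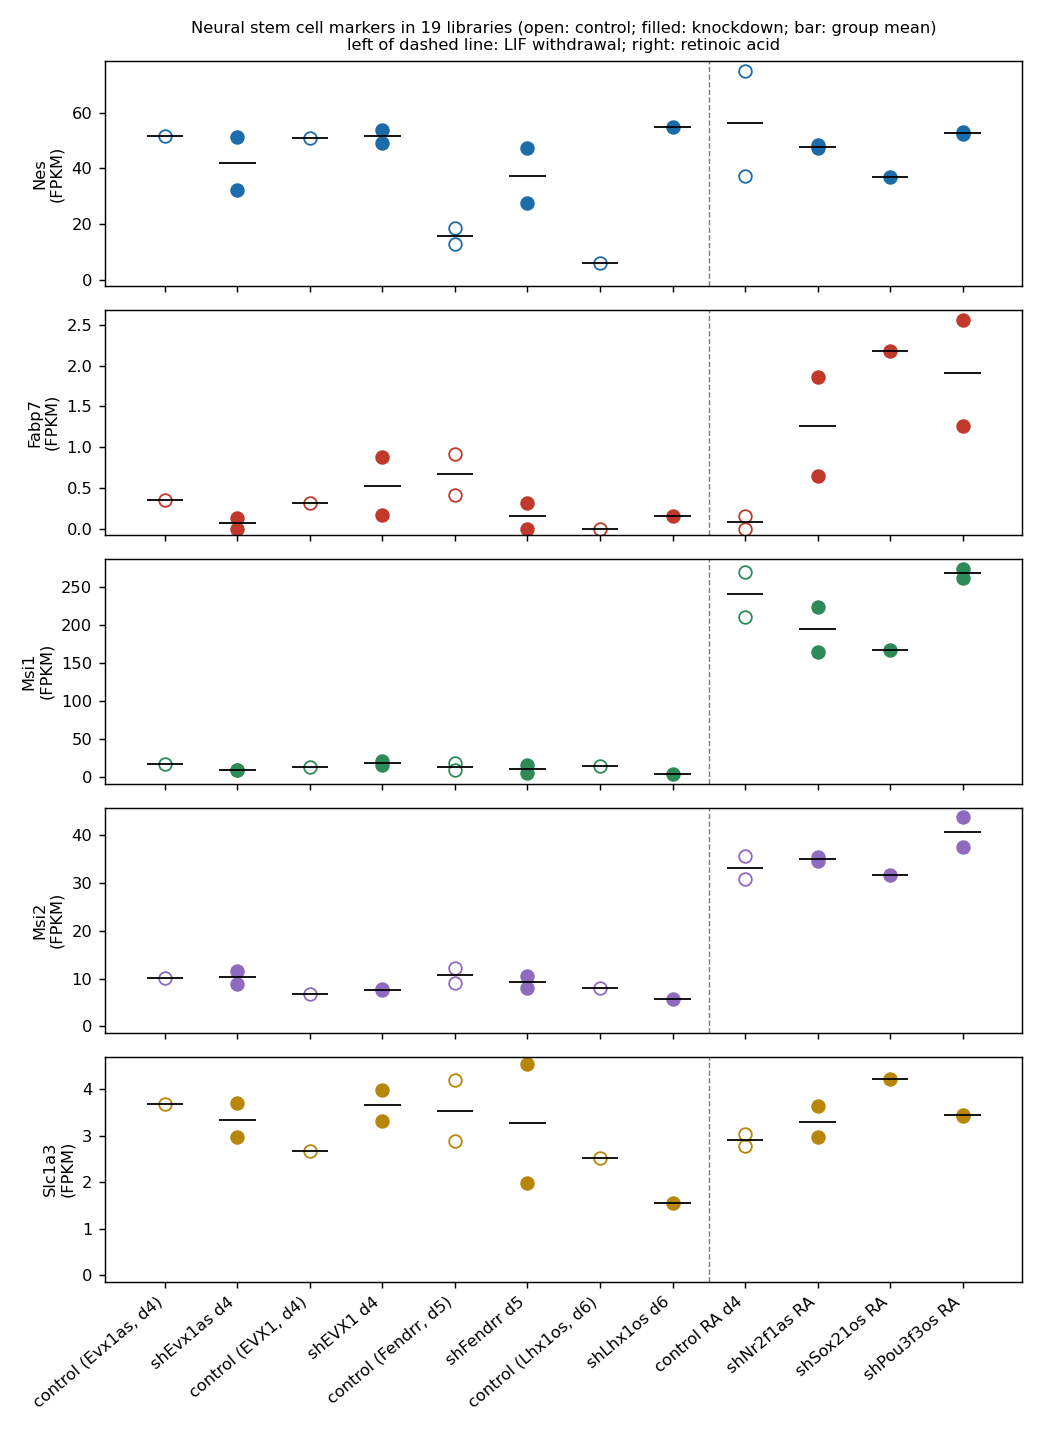
FPKM (vertical axes, which differ between panels) of each gene in the 12 groups; open points are control libraries, filled points knockdown libraries, and bars group means. Msi1 and Msi2 separate the cultures on the 2 sides of the dashed line, Nes is low in the Fendrr and Lhx1os controls, and Fabp7 is above 1 FPKM only in retinoic acid knockdowns.

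Markers of the cell types concerned were read beside the members. In retinoic acid the neural progenitor transcription factors Sox1 (83.3 to 111 FPKM) and Pax6 (45.5 to 89.8 FPKM) were abundant. In the LIF-withdrawal libraries Sox1 reached at most 2.91 FPKM and Pax6 at most 1.60 FPKM. Some genes of later glia were near 0 in both cultures and others were not. Gfap, the astrocyte filament protein, reached at most 0.452 FPKM, the glutamate transporter Slc1a2 at most 0.614 FPKM and the radial glia phosphatase Ptprz1 at most 0.760 FPKM. Glul, glutamine synthetase, was at 54.5 to 160 FPKM over the 2 cultures, the glycolytic enzyme gene Aldoc at 2.76 to 20.5 FPKM, and the matrix gene Tnc reached 13.6 FPKM in retinoic acid. Of 28 radial glia and astroglia genes, 9 to 12 were at 1 FPKM or more in each LIF-withdrawal library (sum 104 to 271 FPKM) and 14 or 15 in each retinoic acid library (sum 313 to 397 FPKM). Dcx, a marker of migrating neurons, reached at most 0.0503 FPKM. Of 30 neural progenitor genes, 12 to 14 were at 1 FPKM or more in each LIF-withdrawal library (sum 278 to 517 FPKM, with Vim the largest) and 25 or 26 in each retinoic acid library (sum 1022 to 1536 FPKM). Set against these markers, the name of the 5 genes as neural stem cell and radial glia markers was matched by progenitor genes in retinoic acid, while glial genes were mixed in both cultures. After LIF withdrawal Sox1 and Pax6 were low while Nes was at 6.02 to 55.0 FPKM. Other genes of the progenitor list were not low there, as the 12 to 14 at 1 FPKM or more show. In such bulk samples fewer cells of a type and less RNA per cell cannot be told apart.

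Msi1 and Msi2 were both higher in retinoic acid than after LIF withdrawal. Msi1 was at 18.1 FPKM in the Evx1as control, 13.2 in the EVX1 control, 18.9 and 9.85 in the Fendrr controls and 15.5 in the Lhx1os control. In the 2 retinoic acid controls it was at 270 and 211 FPKM. The ranges over all libraries were far apart, at 4.06 to 21.3 FPKM in the 12 LIF-withdrawal libraries and 165 to 274 FPKM in the 7 retinoic acid libraries. Between the controls alone, 27.8% of tested entries were higher in retinoic acid without overlap. The control groups' means were 15.9-fold apart, and the log2 change was 3.90 ± 0.34 (SE; adjusted p = 4.2e-06 by limma over 14942 entries). For Msi2 the controls were at 10.0, 6.75, 12.2, 9.10 and 8.10 FPKM after LIF withdrawal and 35.6 and 30.8 FPKM in retinoic acid. All 12 LIF-withdrawal libraries (5.64 to 12.2 FPKM) lay below all 7 retinoic acid libraries (30.8 to 43.8 FPKM). The means were 3.59-fold apart, with a log2 change of 1.81 ± 0.15 (adjusted p = 3.24e-06).

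This difference between cultures was tested between the retinoic acid controls and the mean of the 4 LIF-withdrawal control groups. Line, medium, retinoic acid and, in part, day differ together, so their shares cannot be told apart. In it 3 of the 5 genes were called at an adjusted p under 0.05, all higher in retinoic acid. The background was large: 59.8% of the 14942 tested entries were called, 30.3% higher and 29.5% lower. The median log2 change was 1.19 over the 5 genes and 0.00097 over all entries. The third called gene was Nes, at 1.19 ± 0.28 (adjusted p = 0.00365). Its groups overlapped, and its call rested on single libraries. Without the Lhx1os control the change was 0.60 (adjusted p = 0.0979), and without retinoic acid control replicate 1 it was 0.69 (adjusted p = 0.0694). Fabp7 (log2 change -0.28 ± 0.28, adjusted p = 0.397) and Slc1a3 (-0.06 ± 0.22, adjusted p = 0.836) were not called. The 95% interval of the Slc1a3 change ran from -0.54 to 0.42, and that of Fabp7 from -0.89 to 0.33.

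Between the cultures neural progenitor genes were mostly higher in retinoic acid, and radial glia and neuronal genes were mixed. Of 26 tested neural progenitor genes 22 rose and none fell (median log2 change 2.05), among them Sox1 (5.93), Pax6 (5.94) and Hes5 (3.23), a Notch effector. Vim, the filament partner of nestin, was not called (0.55 ± 0.32, adjusted p = 0.16). Of 18 tested radial glia and astroglia genes 9 rose and 5 fell (median 0.56). The proteoglycan gene Ncan rose (1.76) and the metabolic enzyme gene Aldh1l1 fell (-0.85). Glul, glutamine synthetase, at 0.13 ± 0.15 was not called (adjusted p = 0.452). Neuronal genes were mixed, with 7 of 13 rising, such as Tubb3, neuronal tubulin (2.56), and 4 falling, such as the neurofilament genes Nefl (-2.14) and Nefm (-2.29).

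Gene families of the members themselves did not move in 1 direction. Among fatty acid binding proteins and related retinoid carriers 4 of 5 tested genes rose and 1 fell. The cellular retinoic acid binding proteins Crabp1 (log2 change 8.19) and Crabp2 (6.75) and the epidermal-type Fabp5 (1.19) rose, and the heart-type Fabp3 fell by 1.95. Fabp5 was at 86.5 to 158 FPKM in the retinoic acid libraries, where Fabp7 was at 0 to 2.56 FPKM. Of the 3 tested relatives of Slc1a3 only the neutral amino acid transporter Slc1a5 was called (1.06, adjusted p = 4.95e-05). Of 13 tested intermediate filament genes 4 rose, among them Ina, encoding alpha-internexin (1.99), and 6 fell, among them the epithelial keratin genes Krt8 (-5.98) and Krt18 (-4.19). Of 16 other RNA-binding regulators 10 rose and none fell, among them Elavl3 (1.64), Ptbp2 (1.13) and Lin28b (1.07). The neighbouring pathway of Musashi was measured as well. Of 17 tested Notch and Numb genes 9 rose and 3 fell. Numb itself was 14.2 to 16.4 FPKM in retinoic acid and 16.1 to 24.3 FPKM after LIF withdrawal, and its message fell by 0.26 on the log2 scale (adjusted p = 0.0297). Its paralogue Numbl rose by 0.80 (adjusted p = 0.000883).

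Each Musashi entry has a close neighbour in the table, named here after the values were seen. The unnamed locus XLOC_018760 (chromosome 5, 115870512 to 115879533) ends 160 bases before Msi1. It was at 0 to 0.352 FPKM after LIF withdrawal and 0.0750 to 1.64 FPKM in retinoic acid, ranges that overlap, and it was not called between cultures (log2 change 0.53 ± 0.27, adjusted p = 0.116). C030037D09Rik (chromosome 11, 88579957 to 88589886) starts 375 bases beyond the Msi2 entry. It was at 0.298 to 1.03 FPKM after LIF withdrawal and 1.25 to 3.49 FPKM in retinoic acid, without overlap, and rose (0.82 ± 0.23, adjusted p = 0.00901). The use of strand in counting is not stated, so reads of such close loci may not be separated.

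Msi1 was at 224 and 165 FPKM in shNr2f1as, 167 in shSox21os and 262 and 274 in the libraries labelled shPou3f3os, against 270 and 211 in the controls. Among 8200 entries the 3 most like it over these 7 libraries were Gpr56, an adhesion receptor (Pearson r = 0.993), and the transcription factors Rfx4 (0.991) and Zbtb16 (0.987). Rfx4 was at 29.1 and 20.8 FPKM in shNr2f1as, 22.5 in shSox21os, 39.0 and 39.8 in the libraries labelled shPou3f3os, and 40.4 and 28.6 in the controls. The progenitor factor Pax6 had another order, with 59.2 and 45.5 FPKM in shNr2f1as, 55.8 and 69.9 in the libraries labelled shPou3f3os, and 89.8 and 65.0 in the controls. After LIF withdrawal, where Msi1 was lower, Gpr56 was at 3.75 to 14.6 FPKM. The highest of so many r values over 7 libraries is large by selection, and the libraries share controls, medium and processing. The pluripotency factor Pou5f1 was high in other libraries. It was at 43.5 FPKM in control replicate 1 and 282 in control replicate 2, at 92.1 and 194 in shNr2f1as, at 180 in shSox21os and at 47.2 and 44.6 in the libraries labelled shPou3f3os. Where Msi1 was at 262 FPKM or more, Pou5f1 was at 43.5 to 47.2 FPKM, and in the remaining 4 libraries at 92.1 to 282 FPKM. The summed level of 15 pluripotency genes ranged from 249 FPKM (control replicate 1) to 1140 FPKM (control replicate 2). Nes was at 75.2 and 37.4 FPKM in these same controls, a difference larger than that between any other replicates of Nes (0.99 on the log2 scale), and Vim at 548 and 236 FPKM. The part of pluripotent cells in these values was not tested.

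**Figure D2:**
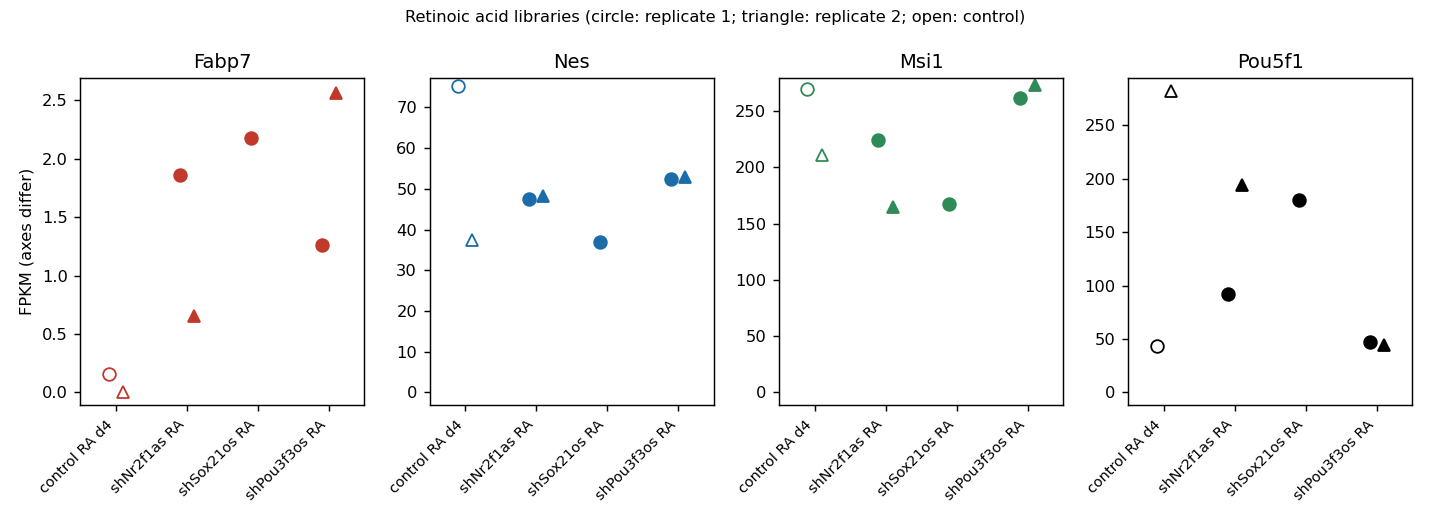
FPKM (vertical axes, which differ between panels) of Fabp7, Nes, Msi1 and Pou5f1 in the 7 retinoic acid libraries; circles are replicate 1, triangles replicate 2, open symbols controls. Both Fabp7 controls (0.156 and 0) lie below all 5 knockdown libraries, while Nes (75.2 and 37.4) and Pou5f1 (43.5 and 282) differ between the controls themselves. Fabp7 passed the floor for testing only through retinoic acid knockdown libraries.

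Nes overlapped between the cultures and varied within them. In the CJ9 controls it was at 51.1 FPKM on day 4, 13.0 and 18.4 FPKM on day 5 and 6.02 FPKM on day 6, so the later controls were lower. These days come from separate experiments with 1 or 2 libraries each, and no test of time was made. In the same controls Hand1, a transcription factor of lateral and extraembryonic mesoderm, was at 13.7, then 118 and 142, then 204 FPKM. T, the primitive streak factor brachyury, was at 326, then 114 and 128, then 20.9 FPKM. Over all 12 groups the order of Nes means ran from the retinoic acid controls (56.3 ± 26.8 FPKM, SD, n = 2) to the Lhx1os control. The 7 highest groups, from both cultures, had means of 47.9 to 56.3 FPKM, and the retinoic acid controls alone spanned all of them. Below shSox21os (36.9 FPKM) came a gap to the Fendrr controls (15.7 ± 3.84 FPKM, n = 2), and the Lhx1os control lay lowest.

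In the knockdowns after LIF withdrawal none of the 5 genes was called by limma. The share of all entries called was 0.00669% in shEvx1as, 0.00669% in shEVX1 and 0.147% in shFendrr. At an unadjusted p under 0.05 there were 0, 0 and 1 of the 5 genes, where 4.38%, 3.32% and 7.03% of entries passed. The 1 gene was Nes in shFendrr. Its libraries were at 27.6 and 47.2 FPKM with the knockdown and 13.0 and 18.4 FPKM in the controls. The groups did not overlap (14.4% of entries were higher without overlap), and the means were 2.38-fold apart. The log2 change was 1.17 ± 0.33 (95% interval 0.45 to 1.90, adjusted p = 0.451), from 0.80 to 1.55 with 1 library left out in turn. Of 13 tested intermediate filament genes 2 rose in that comparison, Nefl (1.20, adjusted p = 0.0415) and Nefm (1.35, adjusted p = 0.0169), which encode neurofilament subunits. Vim, the filament partner of nestin, was not called (-0.45, adjusted p = 0.843). The mesoderm factors Hand1 (-1.55, adjusted p = 0.0489), Foxf1 (-1.65, adjusted p = 0.0339) and Tbx20 (-1.57, adjusted p = 0.00291) fell. Of 26 neural progenitor genes none was called by limma in either direction, and 0 had an unadjusted p under 0.05. Hand1 was at 55.0 and 34.5 FPKM in shFendrr and 118 and 142 FPKM in its controls.

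The remaining members in shFendrr had wide intervals. Msi1 was at 16.2 and 5.40 FPKM, more than 2-fold apart, against 18.9 and 9.85 FPKM in the controls. Msi2 was at 10.5 and 7.99 FPKM against 12.2 and 9.10 FPKM, and Slc1a3 at 4.55 and 1.98 FPKM against 4.20 and 2.88 FPKM. All 3 overlapped with their controls. Fabp7 was at 0.318 FPKM and listed at 0, against 0.914 and 0.418 FPKM, too low for a fold. It lay below both controls, as did 15.7% of entries. In the shEvx1as experiment Msi1 had levels of 9.72 and 9.47 FPKM, below the 18.1 FPKM of the single control (log2 change -0.85 ± 0.49, adjusted p = 1), where 26.3% of entries lay below the control in both libraries. Nes was at 51.3 and 32.4 FPKM against 51.7 FPKM. In shEVX1 Msi1 was at 21.3 and 16.0 FPKM against 13.2 FPKM (0.45 ± 0.49), and 46.7% of entries lay above that control in both libraries. Nes was at 53.9 and 49.3 FPKM against 51.1 FPKM (0.01 ± 0.40, 95% interval -0.88 to 0.90). Over the 5 genes the median log2 change was -0.34 in shEvx1as, 0.17 in shEVX1 and -0.19 in shFendrr, and over all entries 0.05, 0.05 and 0.

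**Figure D3:**
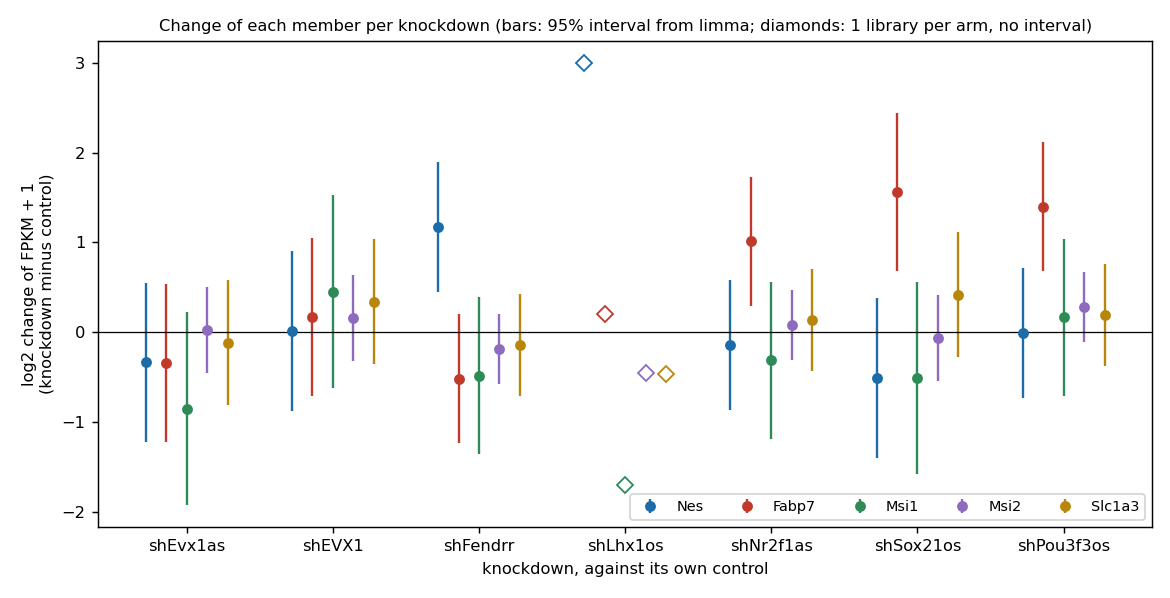
Log2 change of FPKM + 1 (vertical axis), knockdown minus its own control, for each gene (colours) in each knockdown; bars are 95% intervals from limma, and open diamonds mark shLhx1os, which has 1 library per arm and no interval. Nes (3.0) and Msi1 (-1.70) lie apart in shLhx1os, and Fabp7, which passed the floor only through retinoic acid knockdown libraries, lies above the other genes in the 3 retinoic acid comparisons.

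In the Lhx1os experiment the members went apart. Nes was at 55.0 FPKM in the shLhx1os library and 6.02 FPKM in its control, 9.14-fold higher. Msi1 was at 4.06 FPKM against 15.5 FPKM, 3.80-fold lower. Msi2 (5.64 against 8.10 FPKM, 1.44-fold lower) and Slc1a3 (1.55 against 2.52 FPKM, 1.62-fold lower) were also lower, both by less than 2-fold. Fabp7 was at 0.153 FPKM and listed at 0 in the control. With 1 library per arm there is no test, and the difference has no replicate check. Entries with at least 5 FPKM in either library were therefore counted where they differed at least 2-fold. Among the 5 genes these were Nes and Msi1, where 13.4% of the 9015 counted entries differed so, 5.78% higher and 7.67% lower. Nes ranked 17 from the top of these entries by log2 change, and Msi1 ranked 145 from the bottom.

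Between replicates of the same group, 0.684% to 5.73% of entries differed 2-fold, fewer than in shLhx1os. The largest log2 difference between replicates was 0.99 for Nes (retinoic acid controls), 1.43 for Msi1 (shFendrr), 0.39 for Msi2 and 0.90 for Slc1a3. The differences in shLhx1os were 3.0 for Nes, -1.70 for Msi1, -0.46 for Msi2 and -0.46 for Slc1a3. In size the differences of Nes, Msi1 and Msi2 were larger than the largest between their replicates, and that of Slc1a3 was smaller. The replicates came from other groups, days and cultures, and the genes were chosen with earlier results of these data known. This comparison of sizes is therefore no test and no support for a difference. On levels, the 55.0 FPKM of Nes in shLhx1os was the highest of the 12 LIF-withdrawal libraries. It lay just above the 49.3 to 53.9 FPKM of the EVX1 experiment, which was taken on day 4. No other experiment was taken on day 6. The control's 6.02 FPKM was the lowest of the 19 libraries. For Msi1, Msi2 and Slc1a3 the shLhx1os library itself was the lowest of the 19.

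The genes around Nes and Msi1 in that experiment were of several kinds. Of all 9015 counted entries 5.78% were at least 2-fold higher and 7.67% lower. Of 8 counted neural progenitor genes 1 was at least 2-fold lower, the patterning factor Irx3 (5.80 to 1.98 FPKM from control to knockdown), and none was higher. Sox2 was at 48.0 FPKM in the control and 37.4 in the knockdown, Vim at 218 and 389 FPKM, while Sox1 (0.242 and 0.238 FPKM) and Pax6 (0.197 and 0.379 FPKM) were near 0 in both. Of 6 counted radial glia and astroglia genes 4 were at least 2-fold lower and none was higher. These were Aldoc, a glycolytic enzyme of astroglia (20.2 to 2.76 FPKM), Glul (115 to 54.5 FPKM), the growth factor receptor gene Fgfr3 (5.32 to 0.289 FPKM) and Ttyh1 (6.08 to 2.10 FPKM). The list's sum was 211 FPKM in the control and 104 FPKM in the knockdown, with Glul the largest part of both. Genes of the list under 5 FPKM were not counted and went both ways. Tnc (0.902 to 3.27 FPKM) and Nfib (0.258 to 1.17 FPKM) were higher, and Aldh1l1 (3.36 to 1.54 FPKM) was lower. Of 5 counted neuronal genes 4 were higher. The neurofilament gene Nefl was at 5.60 and 63.7 FPKM, Nefm at 4.31 and 35.9 FPKM, Tubb3 at 4.02 and 18.3 FPKM and the growth cone gene Gap43 at 18.7 and 72.9 FPKM. Dcx (0 and 0.0188 FPKM) and Elavl3 (0.332 and 0.360 FPKM) stayed near 0.

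Contractile and mesodermal genes differed there as well. Acta2, smooth muscle actin, was at 34.7 FPKM in the control and 475 in the knockdown, and Tagln, transgelin of smooth muscle, at 116 and 1053 FPKM. Both names were taken after their values were seen. The sum of 10 skeletal muscle genes was 129 and 1332 FPKM, of which the actin gene Acta1 alone was 95.5 and 1302 FPKM. Of the 4 counted genes of that list 2 were at least 2-fold higher and 0 lower, and the troponin gene Tnnt1 was at 9.16 and 4.99 FPKM. The sum of 12 fibroblast genes was 219 and 1584 FPKM, most of it Acta2 (34.7 and 475 FPKM) and Tagln (116 and 1053 FPKM). Of its 7 counted genes 4 were at least 2-fold higher and 1 lower, with the collagen gene Col1a1 at 33.4 and 28.6 FPKM. The sum of 12 neural crest and Schwann lineage genes was 55.5 and 67.8 FPKM, and that of 10 endothelial genes 26.3 and 22.2 FPKM. Of 5 counted crest genes 2 were at least 2-fold higher and 0 lower. These were Foxd3 (1.85 and 5.75 FPKM) and Ngfr (2.80 and 9.79 FPKM). Of 3 counted endothelial genes 1 was at least 2-fold lower, Pecam1 (6.16 and 2.31 FPKM), and 0 higher. The muscle determination factor Myod1 reached at most 0.203 FPKM in any LIF-withdrawal library, the endothelial cadherin Cdh5 at most 2.18 FPKM and the neural crest factor Sox10 at most 2.70 FPKM. Of 9 counted primitive streak and mesoderm genes 6 were at least 2-fold lower and 1 was higher, Wnt3 (11.2 and 34.2 FPKM). Among those lower, Hand1 was at 204 and 10.5 FPKM, Foxf1 at 11.5 and 0.842 FPKM and Tbx20 at 15.0 and 2.21 FPKM. Pou5f1 (167 and 176 FPKM) and T (20.9 and 24.2 FPKM) were close in both libraries. The part of these cell types in the Nes level was not tested.

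Over the 12 LIF-withdrawal libraries the 3 entries most like Nes, of 8985 ranked by Pearson's r of log2(FPKM + 1), were Cnn1 (0.992), Bok (0.986) and Myl9 (0.980). Cnn1 encodes the smooth muscle protein calponin, Myl9 a regulatory myosin light chain, and Bok a BCL2-family protein. Cnn1 was at 40.8 FPKM in the Evx1as control and 49.3 in the EVX1 control, 7.47 and 13.0 in the Fendrr controls and 2.55 in the Lhx1os control. It was at 41.1 and 28.3 FPKM in shEvx1as, 48.3 and 38.4 in shEVX1, 26.0 and 36.1 in shFendrr and 44.0 in shLhx1os. Like Nes, it was low in the 3 later CJ9 controls and higher in all other libraries. Myl9 had the same low libraries, at 15.2, 24.8 and 5.40 FPKM, against 33.3 to 81.9 FPKM elsewhere. The libraries share controls, lines and days, and such r values describe the 12 libraries only.

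**Figure D4:**
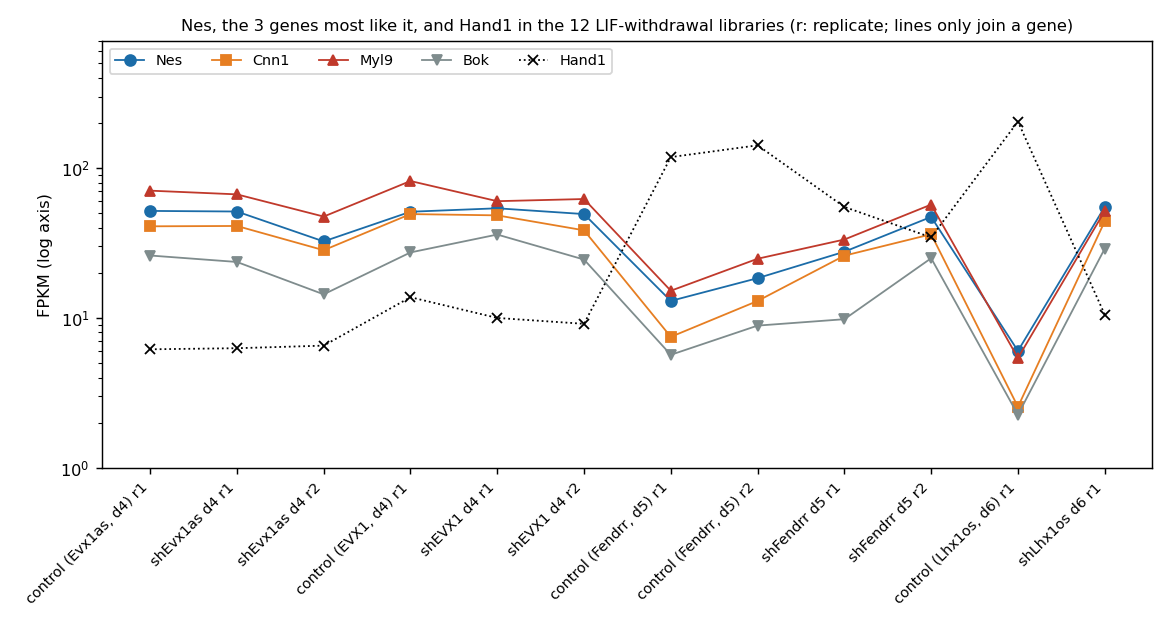
FPKM (log axis) of Nes, Cnn1, Myl9, Bok and Hand1 in the 12 LIF-withdrawal libraries; lines only join the points of a gene. Nes and the 3 genes most like it are lowest in the Lhx1os control (Nes 6.02, Cnn1 2.55) and high in shLhx1os (55.0 and 44.0), whereas Hand1 is highest in that control (204) and lower in shLhx1os (10.5).

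The other members had other companions. Over the LIF-withdrawal libraries Msi1 was most like Abca2 (r = 0.973), Rp9 (0.967) and Sh3pxd2b (0.962), Msi2 most like Usp28 (0.945), Mms19 (0.933) and Trap1 (0.920), and Slc1a3 most like Mdm1 (0.955) and Strada (0.935). Among the members themselves Msi1 and Slc1a3 had the highest r over the 12 libraries (Pearson 0.82, Spearman 0.73), then Msi2 and Slc1a3 (0.76 and 0.67). Nes had negative values with all 4 others, from -0.08 to -0.39. In the 7 retinoic acid libraries Nes and Msi1 had a Pearson r of 0.67 (Spearman 0.75). These r values are given with no test, since libraries of 1 experiment share their culture.

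Fabp7 had its highest levels, still low, in the retinoic acid knockdowns. It was at 0.156 FPKM in control replicate 1 and listed at 0 in control replicate 2. In shNr2f1as it was at 1.86 and 0.652 FPKM, in shSox21os at 2.18 FPKM and in the libraries labelled shPou3f3os at 1.26 and 2.56 FPKM. All 5 knockdown libraries lay above both controls, as did 15.8% of all tested entries; 12.6% lay below both. The 3 comparisons share these controls, so they are not independent of each other. Fabp7 passed the floor only through these knockdown libraries. Neither its place above the controls, set beside the 15.8% of entries, nor a test behind that floor is therefore support for a difference. Without the floor, over all entries above 0 in any library, limma gave log2 changes of 1.02 in shNr2f1as (adjusted p = 0.264), 1.56 in shSox21os (adjusted p = 0.228) and 1.40 in the libraries labelled shPou3f3os (adjusted p = 0.111), and none passed. No fold is given against controls this low. The highest Fabp7 value, 2.56 FPKM, was under the level of Slc1a3 in the same library (3.45 FPKM).

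In the retinoic acid knockdowns the counts of passing genes were read against the share of all entries. Of the 5 genes 0 were called in shNr2f1as, where 0.676% of entries were, 0 in shSox21os (0.0669%) and 0 in the libraries labelled shPou3f3os (2.32%). At an unadjusted p under 0.05 there was 1 gene in each, Fabp7, where 18.1%, 11.4% and 20.8% of entries passed. It is in the tested set only because it was high in these libraries, so nothing is read from that count. Msi1 had log2 changes of -0.31 ± 0.40, -0.51 ± 0.49 and 0.17 ± 0.40 in the 3 comparisons in this order. Its single shSox21os library (167 FPKM) lay below both controls (270 and 211 FPKM), and the share of entries that did so is not given here. Nes was at 47.5 and 48.3 FPKM in shNr2f1as, 36.9 in shSox21os and 52.5 and 52.9 in the libraries labelled shPou3f3os. All 5 lay between 36.9 and 52.9 FPKM, within or just below the span of the controls. Msi2 was at 34.6 and 35.4 FPKM in shNr2f1as, 31.7 in shSox21os and 43.8 and 37.5 in the libraries labelled shPou3f3os. Only the last pair lay above both controls (0.28 ± 0.18, adjusted p = 0.394), where 31.5% of entries did.

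Progenitor genes were mostly lower in shNr2f1as and shSox21os, with few calls. Of 26 tested, 18 were lower in shNr2f1as (median log2 change -0.23), of which 2 were called, 22 in shSox21os (median -0.35), with 0 called by limma, and 13 in the libraries labelled shPou3f3os (median 0.0016), with 1 called in each direction. At an unadjusted p under 0.05 there were 9, 8 and 4 of them in either direction. These comparisons share their controls, in which the 30 genes of the list summed to 1536 and 1121.5 FPKM. The sum was 1308.5 and 1157 FPKM in shNr2f1as, within that span, and 1022 FPKM in the single shSox21os library. In the libraries labelled shPou3f3os it was 1445 and 1491.5 FPKM. Hes3, a Hes-family repressor of neural stem cells, fell in shNr2f1as (-1.69, adjusted p = 0.017) and in the libraries labelled shPou3f3os (-1.19, adjusted p = 0.0331). Prom1, a stem cell surface protein, rose in the libraries labelled shPou3f3os (1.09, adjusted p = 0.048). Among 13 neuronal genes the proneural factor Neurog1 fell in shNr2f1as (-1.27, adjusted p = 0.016) and in the libraries labelled shPou3f3os (-1.24, adjusted p = 0.0126). Stmn2, a neuronal microtubule regulator, rose in both (1.59, adjusted p = 0.0323, and 1.09, adjusted p = 0.0477), and in shSox21os limma called none of the 13, with 2 at an unadjusted p under 0.05. Of 18 radial glia and astroglia genes none was called by limma in any of the 3 comparisons, and 2, 4 and 3 had an unadjusted p under 0.05 in shNr2f1as, shSox21os and the libraries labelled shPou3f3os. Their median log2 change was 0.21, 0.04 and 0.28, and over all entries 0.04, 0.03 and 0.04. In the libraries labelled shPou3f3os the receptor gene Notch2 (0.62, adjusted p = 0.0494) and the RNA-binding gene Qk (0.68, adjusted p = 0.0463) rose. Fabp7 was most like Mfsd1, a lysosomal membrane transporter, over the 7 libraries (r = 0.996). Mfsd1 was at 6.04 and 5.51 FPKM in the controls and 7.18 to 10.0 FPKM in the knockdowns.

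Slc1a3 had the narrowest range in FPKM fold over all 19 libraries, though within each culture Msi2 varied less. Slc1a3 ranged from 1.55 to 4.55 FPKM over the 19 libraries, with medians of 3.15 FPKM after LIF withdrawal and 3.42 FPKM in retinoic acid. In order of group means, shSox21os (4.21 FPKM) was highest and shLhx1os (1.55 FPKM) lowest, and the ranges of 7 neighbouring pairs between these overlapped. The 95% intervals of its log2 change were -0.71 to 0.43 in shFendrr and -0.43 to 0.71 in shNr2f1as. In the libraries labelled shPou3f3os the interval was -0.38 to 0.76. Changes within these bounds are not excluded by the test. In shSox21os, with 1 library at 4.21 FPKM, the log2 change was 0.42. In both libraries labelled shPou3f3os Slc1a3 (3.42 and 3.45 FPKM) lay above both retinoic acid controls (2.77 and 3.03 FPKM), as did 31.5% of entries. Its relatives Slc1a1 (0.0631 to 1.68 FPKM) and Slc1a2 (at most 0.614 FPKM) were lower, and Slc1a4 (5.71 to 15.5 FPKM) was higher. Hes5, which marks Notch-active progenitors, was at most 0.235 FPKM after LIF withdrawal and 3.81 to 10.3 FPKM in retinoic acid, a separation that Slc1a3 did not have.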

How the data were processed

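RNA was extracted with TRIzol, polyadenylated RNA was selected on beads and stranded libraries were made, per the labels' protocols. The authors deposited FPKM values for 38424 entries in 19 libraries. CASAVA, TopHat2 2.0.11 and the builds mm10 and mm9 are named, per the submitters' processing notes; the sources used here do not give the quantifier, the annotation or the use of strand. Positions follow mm9, and RefSeq promoters and gene lengths GRCm38.p6.

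The 14942 entries that reached 1 FPKM in 2 or more libraries were analysed as log2(FPKM + 1), which understates changes of low genes, with limma 3.58.1 in R 4.3.3. A mean per group (12 groups) left 7 residual degrees of freedom, and groups of 1 library were assumed to vary like the others. Tests were two-sided, with Benjamini-Hochberg adjustment over all entries at 0.05. They were also run on simulated data with independent noise, which cannot show the effect of states that libraries share. That run is no support for the results. The Lhx1os experiment was counted, not tested. Named genes were the 5 members, list genes that were called, 32 fixed markers, and the 3 entries most like each member per culture by Pearson's r, among named entries with at least 5 FPKM in a library of that culture. List genes named for shLhx1os other than those markers, and the neighbours, were chosen after their values were seen. Some genes that this rule names are not reported here. The members and lists were chosen with earlier results of these data known.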

Additional observations from a re-analysis of the deposited data

How the results depend on the processing

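The count of called genes in the libraries labelled shPou3f3os went from 0 to 1 (Fabp7) with the libraries rescaled to the same total and to 1 with a replicate block (log2 change 1.40, adjusted p = 0.0435). Fabp7 passed the floor only through retinoic acid knockdown libraries, so these calls support nothing; without the floor its adjusted p was 0.111. The numbers were not taken to pair the libraries: same-numbered deviations had r of 0.35 in the Fendrr experiment and 0.30, -0.02 and -0.05 in retinoic acid. The block changed no other call, and none could be fitted for Evx1as and EVX1, whose controls carry no number. With 1 library left out in turn, 2 to 3 genes were called between cultures and 0 in each knockdown. A pseudocount of 0.1 moved the log2 change of Fabp7 in shLhx1os from 0.21 to 1.34, in shEvx1as from -0.34 to -1.56, in shFendrr from -0.52 to -1.83, between cultures from -0.28 to -1.09, and in shNr2f1as, shSox21os and the libraries labelled shPou3f3os to 2.92, 3.83 and 3.57.

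Some log2 changes reversed sign. With both day-4 controls as 1 group Slc1a3 in shEvx1as became 0.0614 and Msi2 in shEVX1 -0.0944, and rescaling gave Nes 0.0519 in the libraries labelled shPou3f3os. With 1 library left out in turn the ranges that crossed 0 were as follows. In shEvx1as Msi2 ranged from -0.146 to 0.189 and Slc1a3 from -0.237 to 0.00584. In shEVX1 Nes ranged from -0.0507 to 0.0750 and Fabp7 from -0.182 to 0.515. In shFendrr Msi1 ranged from -1.20 to 0.228, Msi2 from -0.382 to 0.00966 and Slc1a3 from -0.593 to 0.306, turning positive without control replicate 1 (Msi2, Slc1a3) or shFendrr replicate 2 (Msi1, Slc1a3). In shNr2f1as Nes ranged from -0.641 to 0.349 and Msi2 from -0.0232 to 0.179, and in shSox21os Msi2 from -0.164 to 0.0383. In the libraries labelled shPou3f3os Nes ranged from -0.504 to 0.486 and Msi1 from -0.0105 to 0.343. The changes of sign in retinoic acid came with leaving out a control. Between cultures Slc1a3 ranged from -0.126 to 0.0113. The cause was not tested. Depth was not given as counts, so the counting error behind Fabp7 was not computed.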
